A study of Mus musculus with 6 samples.

Results

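Most microRNAs are made by a short chain of proteins, and 10 genes that encode its central members were followed here in mouse lung epithelial cells with reduced Nkx2-1. They are Drosha and Dgcr8 (the Microprocessor), Xpo5 (nuclear export), Dicer1 and Tarbp2 (the second cut), Ago1, Ago2, Ago3 and Ago4 (the Argonautes that hold the mature microRNA) and Lin28b (an inhibitor of let-7 maturation). Each was read from the transcript cluster, the probe set of the array for 1 transcript unit, whose only gene symbol it is. Of several such transcript clusters, that with the highest average signal was taken. All 10 were found among the 19938 genes with a single symbol.

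The cells were MLE15, a mouse line from lung tumors of animals in which the human promoter of surfactant protein C drives the large T antigen of a simian virus, so both groups carry the antigen. The Nkx2-1-shRNA group was transduced with a mix of 3 lentiviral pLKO.1 clones against Nkx2-1, the homeobox factor of lung epithelium, and the non-silencing control group with the empty pLKO.1 vector, which expresses no hairpin. All lines were selected with puromycin. The groups therefore differ in hairpin expression as well as in Nkx2-1, and effects of these cannot be told apart here. Each group had 3 independently transduced lines with 1 Affymetrix Mouse Gene 1.0 ST array per line, and the labels give a time of 48 h for every sample while the paper describes stable lines. P-values therefore measure the spread between lines of 1 parental cell line. Because total RNA of whole cultures was measured, fewer cells that express a gene and less RNA per cell cannot be told apart.

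A primary microRNA transcript is cut in the nucleus by the nuclease DROSHA with its partner DGCR8 into a hairpin. XPO5 carries the hairpin to the cytoplasm, DICER1 with TARBP2 or PRKRA cuts it to a duplex, and 1 strand is loaded onto an Argonaute protein, which pairs with messenger RNAs mainly through the seed, the bases at positions 2 to 8. In mammals AGO2 is the Argonaute known for cutting its targets, while the others act mainly by recruiting GW182 proteins, deadenylases and decapping factors. LIN28B binds the loop of many let-7 hairpins and blocks their maturation.

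Mir23a, Mir27a and Mir24-2 are shown because they are microRNA genes of 1 cluster whose transcript clusters all rose (below). RefSeq places their hairpins within 404 bases of chromosome 8 (GRCm38.p6, plus strand), at chr8:84208518-84208592, chr8:84208672-84208758 and chr8:84208815-84208921. Capitals mark the mature arms, the parts that DROSHA and DICER1 cut free.
Mir23a: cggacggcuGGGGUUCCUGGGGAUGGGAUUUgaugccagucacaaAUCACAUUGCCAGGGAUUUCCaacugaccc
Mir27a: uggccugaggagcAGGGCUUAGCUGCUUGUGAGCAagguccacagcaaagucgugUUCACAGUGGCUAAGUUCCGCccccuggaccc
Mir24-2: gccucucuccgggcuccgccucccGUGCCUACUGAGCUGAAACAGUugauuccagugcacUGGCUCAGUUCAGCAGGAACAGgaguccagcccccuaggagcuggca

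The mature strands that these hairpins give are shown with their seed in capitals, next to miR-200c, the microRNA the study turned to, and let-7g, a let-7 that LIN28 proteins bind. The 5 seeds are all different.
mmu-miR-23a-3p: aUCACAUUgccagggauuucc
mmu-miR-27a-3p: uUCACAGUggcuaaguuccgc
mmu-miR-24-3p: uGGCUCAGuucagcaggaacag
mmu-miR-200c-3p: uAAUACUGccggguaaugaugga
mmu-let-7g-5p: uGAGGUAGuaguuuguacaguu

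The let-7g hairpin (chr9:106178840-106178927, GRCm38.p6, plus strand) is given to show the GGAG to which LIN28 proteins bind, here in capitals. The letters GGAG, searched on the RNA strand, stood in 9 of 11 let-7 hairpins and in 44.5% of the 1005 mouse hairpins of RefSeq.
Mirlet7g: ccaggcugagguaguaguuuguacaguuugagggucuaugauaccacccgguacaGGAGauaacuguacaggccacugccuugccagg

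The arrays were close in level, though each Nkx2-1-shRNA array had a lower median than any control array. Their median log2 value was 5.10 to 5.14 in Nkx2-1-shRNA lines and 5.18 to 5.21 in control lines, and arrays correlated at 0.991 to 0.994 within and 0.979 to 0.983 between groups. Nkx2-1 itself read 7.91, 7.98 and 7.83 in the Nkx2-1-shRNA lines, against 8.61, 8.61 and 8.59 in control lines (log2 fold change -0.69 ± 0.0760 SE, limma adjusted p = 0.00155, 61.8% of control), so the labels of all 6 arrays match the target. With limma at an adjusted p under 0.05, 2705 of 35557 transcript clusters were higher in Nkx2-1-shRNA lines (7.61%) and 3284 lower (9.24%). Median centring of each array turned this split to 3484 higher and 2376 lower. Among the 13554 genes above the background limit, 15.3% were higher and 14.0% lower. That limit, a log2 value of 4.35, was set so that 95% of the 1250 transcript clusters for odorant, vomeronasal and taste receptors fell under it. The groups did not overlap for 34.9% of all transcript clusters. The threshold of the study is an adjusted p under 0.0005 and a log2 fold change beyond 0.6. With the limma adjusted p used here, 448 transcript clusters (1.26%) passed it. The paper counts more genes with its own adjusted p, so missing this threshold here does not mean missing the paper's call. Of 7 epithelial markers 6 lay above the limit in all 6 arrays and Cldn7 lay below it in all 6. Krt18, Krt19 and Cldn4 were higher in Nkx2-1-shRNA lines (median of the 7 markers 0.34), and the part of this shift in the results was not tested. Of 8 alveolar type II markers 2 were higher and 3 lower, and Lamp3 and Slc34a2 lay below the limit in all 6 arrays. Of the 7 leukocyte markers read, 4 lay below the limit in all 6 arrays, as did 4 of 7 endothelial and 3 of 8 fibroblast markers, and the part of any other cell type in the results was not tested.

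Of the 10 genes, Ago4 rose and Drosha and Ago1 fell in Nkx2-1-shRNA lines, and 7 did not pass the test. That is 1 of 10 higher and 2 of 10 lower, against the 15.3% and 14.0% of all genes above background, so the number of changed genes is close to the background. Their median log2 fold change was 0.04, against -0.0040 for all genes above background. The groups did not overlap for 5 of the 10, Drosha, Dicer1, Ago1, Ago3 and Ago4, against 34.9% of all transcript clusters, which include those under the limit. Whether these shares differ was not tested. All but Lin28b, 9 genes, lay above the limit in all 6 arrays. With 3 lines against 3, an exact permutation test cannot go below 0.1, and it gave 0.1 (two-sided) for each of these 5.

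**Figure D1:**
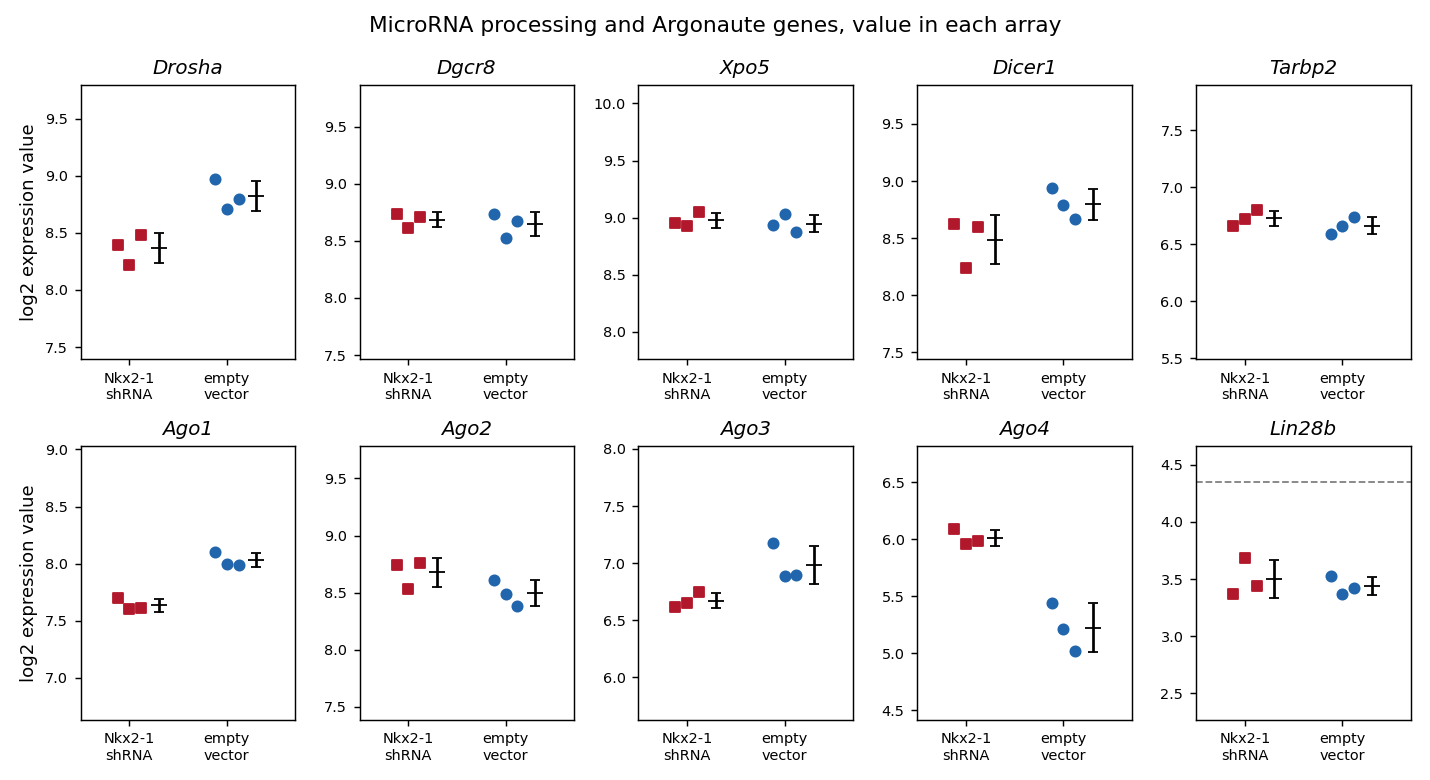
Log2 expression values of the 10 genes in each array, with Nkx2-1-shRNA lines as red squares and empty vector lines as blue circles, and the mean ± SD (n = 3) beside each group. Every panel spans the same log2 range; the dashed line in the Lin28b panel is the background limit of 4.35, and only Ago4, Drosha and Ago1 differ between groups at an adjusted p under 0.05.

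Drosha, the nuclease of the Microprocessor, was lower in every Nkx2-1-shRNA line than in any control line. Its transcript cluster (10423185, gene on chromosome 15) read 8.40, 8.22 and 8.48 in Nkx2-1-shRNA lines, against 8.97, 8.71 and 8.79 in control lines. The means were 8.37 ± 0.133 and 8.83 ± 0.131 (SD, n = 3 each), which gives a log2 difference of -0.46 ± 0.107 (SE, 95% interval -0.72 to -0.21, limma adjusted p = 0.0287). This left Drosha at 72.7% of control, with an interval of 60.9% to 86.7%. The call was not stable to the loss of 1 line: the adjusted p was 0.0778 without control line 1, 0.0631 without control line 3, 0.0808 without Nkx2-1-shRNA line 1 and 0.0868 without Nkx2-1-shRNA line 2. The direction stayed in all 17 alternatives, of which 11 kept the adjusted p under 0.05.

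Dgcr8, which binds the hairpin for DROSHA, showed no such difference. It read 8.73, 8.61 and 8.71 in Nkx2-1-shRNA lines and 8.74, 8.53 and 8.67 in control lines, and the groups overlapped. The log2 fold change was 0.04 (95% interval -0.17 to 0.25, adjusted p = 0.812), so the data leave room for a fall to 89.1% or a rise to 119% of control. Xpo5, the export receptor, read 8.96, 8.92 and 9.05 in Nkx2-1-shRNA lines and 8.94, 9.03 and 8.88 in control lines. Here too the groups overlapped, and the log2 fold change was 0.03 (-0.17 to 0.22, adjusted p = 0.864).

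Dicer1, the nuclease of the second cut, lay lower in each Nkx2-1-shRNA line than in any control line but did not pass the test. The values were 8.62, 8.24 and 8.60 in Nkx2-1-shRNA lines, against 8.94, 8.79 and 8.67 in control lines. The log2 fold change was -0.31 ± 0.131 (95% interval -0.62 to 0.00057, adjusted p = 0.170). Nkx2-1-shRNA line 2 was the lowest of the 6, for Dicer1 as for Drosha, and none of the 17 alternatives brought Dicer1 under 0.05 (adjusted p 0.0838 to 0.366). Tarbp2, the double-stranded RNA binding partner of DICER1, read 6.66, 6.72 and 6.80 in Nkx2-1-shRNA lines and 6.59, 6.66 and 6.74 in control lines (log2 fold change 0.06, -0.13 to 0.26, adjusted p = 0.680). A second transcript cluster of Tarbp2 did not differ past the threshold either (log2 fold change 0.22, adjusted p = 0.498).

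**Figure D2:**
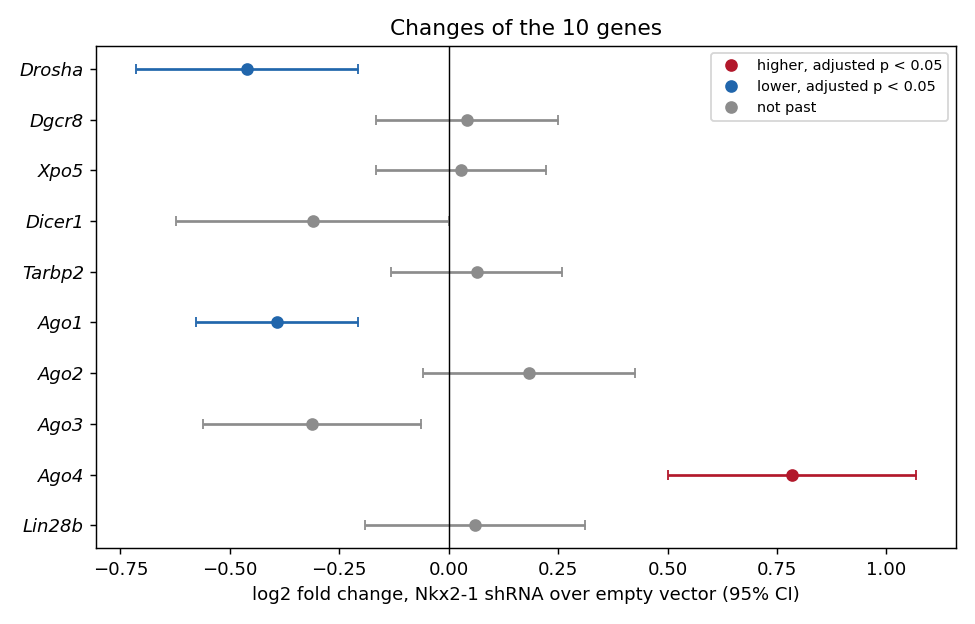
Log2 fold change of the 10 genes, Nkx2-1-shRNA over empty vector lines, as points with 95% intervals from the limma fit (n = 3 each); red is higher and blue lower at an adjusted p under 0.05, grey is not past the threshold. The intervals of Ago4 (0.50 to 1.07), Drosha and Ago1 exclude 0 and their adjusted p pass; that of Ago3 excludes 0 but its adjusted p is 0.0927.

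The 4 Argonautes did not all move alike. Ago4 had the largest change of the 10 genes, upward, Ago1 fell, and Ago2 and Ago3 did not pass the test. Ago4 read 6.09, 5.96 and 5.99 in Nkx2-1-shRNA lines, against 5.44, 5.21 and 5.02 in control lines, all above the background limit. The means were 6.01 ± 0.0682 and 5.23 ± 0.211 (SD, n = 3 each). The log2 fold change was 0.78 ± 0.120 (95% interval 0.50 to 1.07, adjusted p = 0.00592), or 172% of control (141% to 210%).

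Ago1 read 7.70, 7.60 and 7.61 in Nkx2-1-shRNA lines, against 8.10, 8.00 and 7.99 in control lines. Its replicates were the tightest pair of groups among the 4, and the gap between the groups was several times their spread. The log2 fold change was -0.39 ± 0.0778 (95% interval -0.58 to -0.21, adjusted p = 0.0161), or 76.2% of control. The adjusted p rose to 0.0515 without control line 1, 0.0596 without Nkx2-1-shRNA line 2 and 0.0604 without Nkx2-1-shRNA line 3.

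Ago3 read 6.62, 6.65 and 6.75 in Nkx2-1-shRNA lines, against 7.18, 6.89 and 6.89 in control lines. The groups did not overlap, and control line 1 was the highest. The log2 fold change of -0.31 ± 0.105 (-0.56 to -0.064) did not pass (adjusted p = 0.0927). Ago2, the slicing Argonaute, read 8.74, 8.53 and 8.76 in Nkx2-1-shRNA lines and 8.61, 8.49 and 8.38 in control lines. These groups overlapped. Their log2 difference was 0.18 (-0.058 to 0.43, adjusted p = 0.293), and the second Ago2 transcript cluster gave 0.17 (adjusted p = 0.665).

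To see whether the Argonautes shifted against each other inside each line, the difference of their log2 values was taken per array. These pairs were chosen after the values had been seen, and 4 pairs were computed. Ago4 minus Ago1 was -1.61, -1.64 and -1.62 in Nkx2-1-shRNA lines, against -2.66, -2.78 and -2.97 in control lines. The difference thus shifted by 1.18 ± 0.0906 (SE, exact permutation p = 0.1, the smallest possible) toward Ago4, and by 1.09 to 1.25 when any 1 line was left out. For Ago4 against Ago3 the shift was 1.10 ± 0.0915 and for Ago2 against Ago1 0.58 ± 0.0730 (exact p = 0.1 each). Ago4 was higher and Ago1 and Ago3 lower in Nkx2-1-shRNA lines without overlap, so the exact p of both Ago4 pairs was fixed at 0.1. It adds nothing to the values of the single genes. For Ago1 against Ago3 it was -0.08 ± 0.0886 (exact p = 0.4). A difference between probe sets within an array gives the shift between groups, not which Argonaute is more abundant.

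Ago3, Ago1 and Ago4 lie side by side on chromosome 4, on the minus strand, so that Ago4 comes first in the direction of transcription. Next to Ago4 lies Clspn, a replication checkpoint gene, which fell (log2 fold change -0.49, adjusted p = 0.0167). Ncdn, 5 genes beyond Ago4, fell too (-0.32, adjusted p = 0.0430). The other 8 of the 10 flanking genes did not pass the test, between -0.27 (Tekt2, below the background limit) and 0.18 (Tfap2e). Over the 18 nearest genes read, 10 on either side with the other Argonautes left out, the median was -0.11, with 1 higher and 2 lower. Of all genes above background 15.3% were higher and 14.0% lower. Ago4 rose while Clspn and Ago1, the genes on either side of it, fell.

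**Figure D3:**
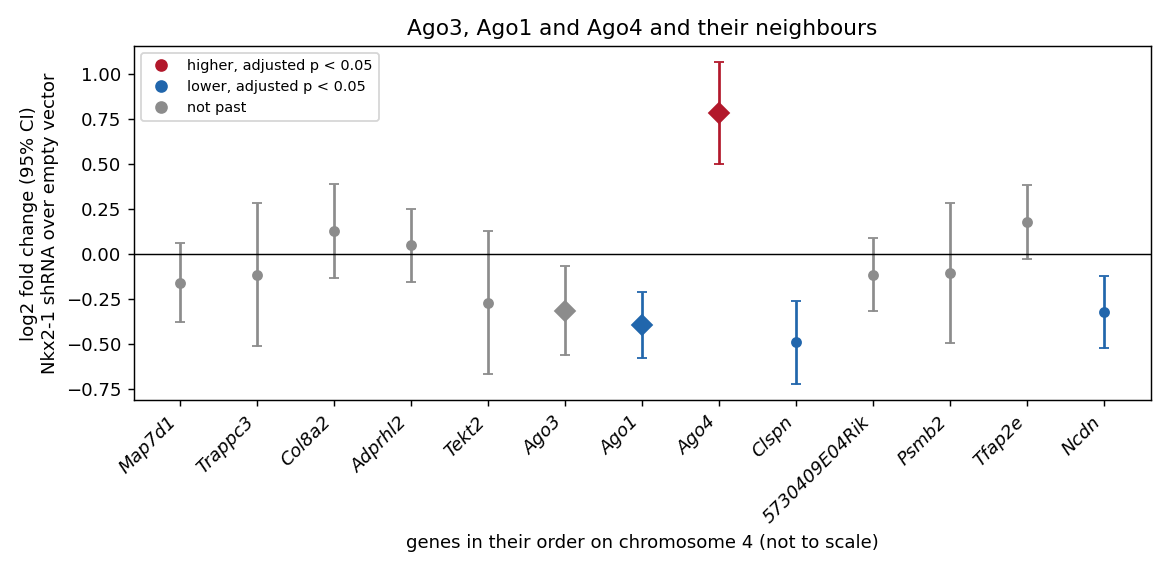
Log2 fold change, Nkx2-1-shRNA over empty vector lines, with 95% intervals (n = 3 each), for Ago3, Ago1 and Ago4 (diamonds) and the 5 genes on each side, in chromosome order and not to scale. Ago4 is the only gene of the 13 that is higher at an adjusted p under 0.05; Ago1, Clspn and Ncdn are lower.

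Neighbours of Drosha on chromosome 15 did not fall with it. Of the 20 nearest genes read, 16 lay above 0 and 4 below, 4 were higher by limma, and the median was 0.14. Of all genes above background 15.3% were higher, and the difference was not tested. The promoter windows of the 3 genes that passed the test are printed so that they can be read next to each other. Each runs from 250 bases before to 50 after the RefSeq start (GRCm38.p6), at chr15:12824565-12824864 (plus strand) for Drosha, chr4:126468582-126468881 (minus strand) for Ago1, and chr4:126533409-126533708 (minus strand) for Ago4. Capitals mark CAAG or CTTG, the core of the sequence NKX2-1 is known to bind, on either strand.
Drosha: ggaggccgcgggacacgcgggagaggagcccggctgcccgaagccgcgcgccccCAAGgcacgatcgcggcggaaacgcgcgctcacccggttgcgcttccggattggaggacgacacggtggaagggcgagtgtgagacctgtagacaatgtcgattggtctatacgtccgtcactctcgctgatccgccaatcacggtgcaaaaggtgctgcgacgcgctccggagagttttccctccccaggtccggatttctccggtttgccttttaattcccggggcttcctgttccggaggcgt
Ago1: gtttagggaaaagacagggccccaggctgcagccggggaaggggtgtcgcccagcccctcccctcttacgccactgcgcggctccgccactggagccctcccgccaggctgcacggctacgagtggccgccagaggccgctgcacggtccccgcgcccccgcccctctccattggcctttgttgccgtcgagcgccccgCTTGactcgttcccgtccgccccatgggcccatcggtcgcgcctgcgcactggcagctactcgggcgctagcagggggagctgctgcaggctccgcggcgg
Ago4: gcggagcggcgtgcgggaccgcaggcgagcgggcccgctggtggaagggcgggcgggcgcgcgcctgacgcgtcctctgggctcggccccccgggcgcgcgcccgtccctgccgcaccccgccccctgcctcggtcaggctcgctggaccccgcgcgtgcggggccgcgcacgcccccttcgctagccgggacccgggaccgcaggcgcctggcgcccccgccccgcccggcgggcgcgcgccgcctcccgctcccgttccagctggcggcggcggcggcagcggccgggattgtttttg

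Drosha and Ago1 each held 1 such match and Ago4 none. Of the 32851 mouse windows 90.6% held at least 1, with a median of 2, so a match sets none of these genes apart. Of the 9 genes with a window in the table, 8 held a match. The Ago4 window had 83.3% G and C, more than 99.7% of all windows (median 52.7%). RefSeq lists 2 starts for Ago1, of which 1 is shown. No binding was measured in these files.

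Lin28b was at background. Its values were 3.37, 3.68 and 3.44 in Nkx2-1-shRNA lines and 3.52, 3.37 and 3.42 in control lines, all under the limit of 4.35 (log2 fold change 0.06, -0.19 to 0.31, adjusted p = 0.773). Lin28a, its relative, read 4.77, 5.08 and 5.19 in Nkx2-1-shRNA lines and 4.95, 4.91 and 5.20 in control lines (adjusted p = 0.980), and Tut4, the enzyme that tails let-7 hairpins with LIN28, differed by -0.08 on the log2 scale (adjusted p = 0.602). Of 12 genes read from a list of let-7 targets and companions of LIN28B, 5 were higher (41.7%) and 2 lower (16.7%), against 15.3% and 14.0% of all genes above background (median log2 fold change 0.16). Plag1, a zinc finger transcription factor, rose by 1.27 (adjusted p = 0.000655) and Hmga2, a chromatin protein and textbook let-7 target, by 0.57 (adjusted p = 0.00294). Hmga2 read 8.54, 8.58 and 8.64 in Nkx2-1-shRNA lines, against 8.04, 8.01 and 7.97 in control lines. The Myc family split, since Myc rose by 0.95 (adjusted p = 0.000945) and Mycn fell by 1.09 (adjusted p = 0.00325). The let-7 targets therefore did not move as 1 group: Igf2bp3, an RNA-binding protein, also fell (-0.76, adjusted p = 0.0120), while the receptors Acvr1b (0.49, adjusted p = 0.00880) and Tgfbr1 (0.47, adjusted p = 0.0152), named after their values were seen, rose. The call of Tgfbr1 was lost without Nkx2-1-shRNA line 1 (adjusted p = 0.0574) or line 3 (0.0569).

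Around the 10 genes, lists of factors with known roles in microRNA production and silencing were read. In the 5 lists together, 74 of 79 genes had a single-symbol transcript cluster, and 5 were higher (6.76%) and 14 lower (18.9%), with a median log2 fold change of -0.04. Among all genes above background 15.3% were higher and 14.0% lower. The share that fell is thus near the background and the share that rose lies under it, and neither difference was tested. The 14 falls were 3 of 10 Microprocessor cofactors, 3 of 7 genes for export and DICER1 partners and 4 of 12 for Argonaute loading. The rest were 3 of 32 genes for GW182, deadenylation and decapping and 1 of 13 for tailing and turnover. Differences between the lists were not tested. Of 10 cofactors of the Microprocessor 3 (30.0%) were lower and none higher by limma, and without adjustment 5 were lower and none higher, where 22.4% of all genes above background lay in each direction. After adjustment 3 were lower and 1 higher by the methods' t-test. Of 7 genes for nuclear export, cap binding and DICER1 partners 3 (42.9%) were lower and none higher by limma (4 lower and none higher unadjusted, 4 and 0 by the methods' t-test). The medians were -0.17 and -0.18. Whether lists this short differ from other genes was not tested.

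**Figure D4:**
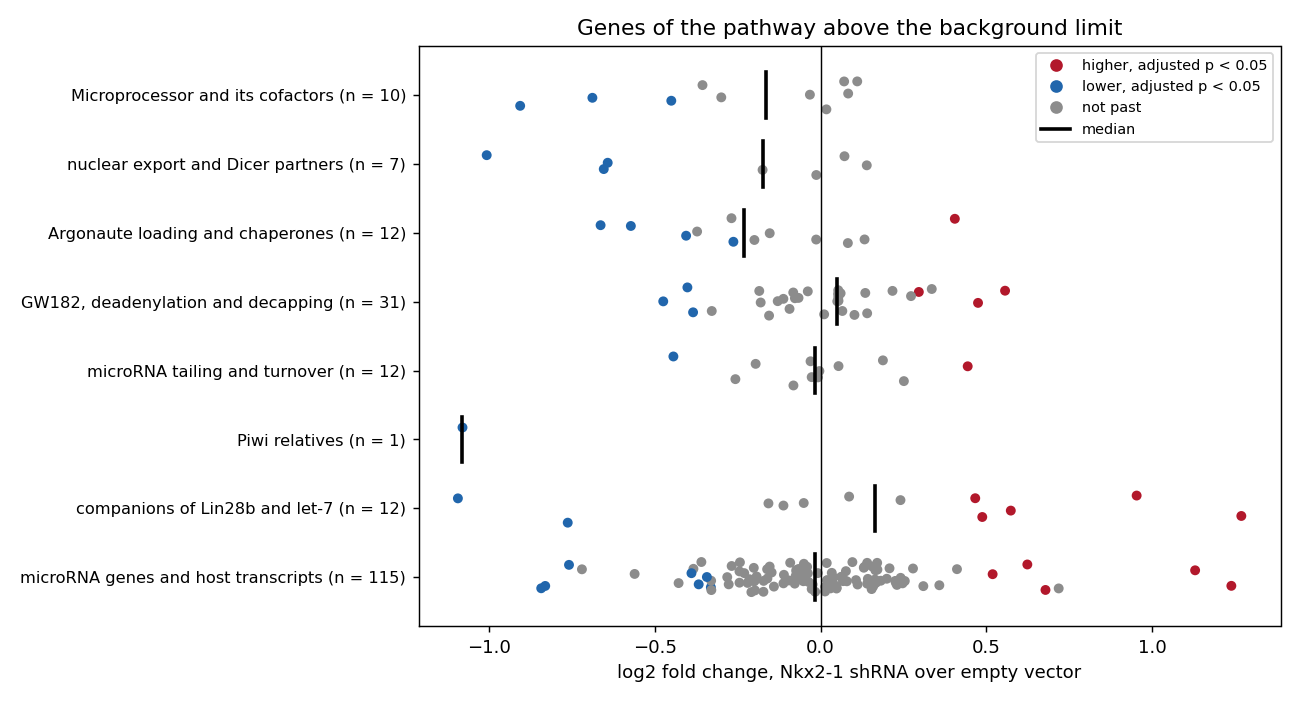
Log2 fold change, Nkx2-1-shRNA over empty vector lines, of each list gene above the background limit in at least 1 group (1 point per gene, vertical place within a row is arbitrary), with the median of each list as a black bar. Red and blue points are higher and lower at an adjusted p under 0.05. The Microprocessor and export rows hold 6 blue points and no red one, and the GW182 row holds 3 of each.

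The cap-binding pair and its adaptor fell together. Srrt (also called Ars2), which links capped primary microRNAs to the Microprocessor, read 8.35, 8.15 and 8.18 in Nkx2-1-shRNA lines, against 9.15, 9.06 and 9.18 in control lines (log2 fold change -0.91 ± 0.0871, adjusted p = 0.000941, 53.4% of control). Ncbp1, the large subunit of the nuclear cap-binding complex, read 8.96, 9.03 and 9.04 in Nkx2-1-shRNA lines, against 9.67, 9.60 and 9.69 in control lines (-0.64, adjusted p = 0.00196). Ncbp2, its small subunit, read 8.26, 8.26 and 8.22 in Nkx2-1-shRNA lines, against 8.85, 8.88 and 8.96 in control lines (-0.65, adjusted p = 0.00172). In none of these 3 genes did the groups come near to overlapping, and all 3 stayed under an adjusted p of 0.05 in all 17 alternatives. They serve all capped transcripts, not microRNAs alone.

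Dhx9, an RNA helicase that associates with the Microprocessor, fell by 0.69 (adjusted p = 0.00138), and Khsrp, which binds the loops of let-7 and other hairpins, fell by 0.45 (adjusted p = 0.00623). Both kept the call in all 17 alternatives. Ddx5, the best known helicase of the Microprocessor, did not pass (log2 fold change -0.03, adjusted p = 0.849). Prkra, the second double-stranded RNA binding partner of DICER1, read 5.72, 5.51 and 5.56 in Nkx2-1-shRNA lines, against 6.75, 6.78 and 6.28 in control lines (-1.01 ± 0.149, adjusted p = 0.00520, 49.7% of control). Prkra thus fell where Tarbp2 did not pass the test; the difference between them was not tested. Genes beside Prkra on chromosome 2 were low as well: of the 20 nearest read, 17 lay below 0 and 8 were lower by limma, with a median of -0.29. Of all genes above background 14.0% were lower, and the difference was not tested.

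Of 12 chaperones and loading factors of the Argonautes 4 were lower (33.3%) and 1 higher (8.33%), against 14.0% and 15.3% of all genes above background (median -0.23). Dnaja1, an HSP40, fell by 0.66 (adjusted p = 0.00141) and Stip1, which joins HSP70 to HSP90, by 0.57 (adjusted p = 0.00482). Hsp90aa1 fell by 0.41 (adjusted p = 0.0187), and its 2 other transcript clusters fell as well (adjusted p = 0.0185 and 0.00704). Fkbp5, a co-chaperone of HSP90, rose by 0.40 (adjusted p = 0.0253). Hspa8, named after its values were seen, was lower by little (-0.26, adjusted p = 0.0471). Dnaja1 and Stip1 held in all 17 alternatives. A second transcript cluster of Dnaja1 was lower but did not pass (-0.41, limma adjusted p = 0.0594). The same was true of the other transcript clusters of Hspa8 (-0.26 and -0.38, adjusted p = 0.0550 and 0.0539). Hsp90aa1 lost its call without any 1 line but control line 3 (adjusted p 0.0505 to 0.0661), Fkbp5 without any but Nkx2-1-shRNA line 3 (0.0523 to 0.0923), and Hspa8 without any of the 6 (0.0922 to 0.136).

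The silencing machinery downstream of the Argonautes changed in both directions. Of 32 genes of the GW182, deadenylation and decapping list 3 were higher, 3 lower (9.38% each, under the 15.3% and 14.0% of all genes above background) and 26 not past the test (median 0.03). Wtip, a LIM domain protein of processing bodies, rose by 0.56 (adjusted p = 0.00669) and Cnot6l, a deadenylase of the CCR4-NOT complex, by 0.47 (adjusted p = 0.00912). Dcp1a, an activator of decapping, fell by 0.47 (adjusted p = 0.0176), and Tnrc6a, a GW182 protein that Argonautes bind, by 0.40 (adjusted p = 0.0281). Lsm14a (0.30, adjusted p = 0.0370) and Edc4 (-0.38, adjusted p = 0.0180), named after their values were seen, complete the 6. Wtip and Cnot6l held with every line left out, whereas Tnrc6a was lost without any line but control line 2 (0.0620 to 0.0929) and Lsm14a without any of the 6 (0.0607 to 0.115). Dcp1a was lost without control line 2 or Nkx2-1-shRNA line 1 or 2 (0.0574 to 0.0711), and Edc4 without control line 1 or 2 or Nkx2-1-shRNA line 2 or 3 (0.0518 to 0.0668).

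Among 13 genes of microRNA tailing and turnover, Exosc10, a nuclease of the nuclear exosome, fell by 0.44 (adjusted p = 0.0122) and Parn, a poly(A) ribonuclease, rose by 0.44 (adjusted p = 0.0236), and 11 did not pass. Each direction thus held 7.69% of the list, against 15.3% higher and 14.0% lower of all genes above background. Exosc10 missed the threshold without Nkx2-1-shRNA line 1 (0.0543), and Parn without any line but control line 1 (0.0648 to 0.0771). Of the 3 Piwi genes, the germline relatives of the Argonautes, Piwil4 was lower. It read 4.34, 4.11 and 4.23 in Nkx2-1-shRNA lines, under the background limit, against 5.29, 5.41 and 5.23 in control lines (adjusted p = 0.000635).

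MicroRNA genes themselves were read through their transcript clusters, which do not separate the primary transcript from the hairpin and are not a measure of mature microRNA. Of 303 microRNA genes and host transcripts 115 lay above background in at least 1 group, and of the 303, 7 were higher (2.31%), 10 lower (3.30%) and 286 not past the test (median -0.04). Over all transcript clusters 7.61% were higher and 9.24% lower, which are larger shares, and the difference was not tested. The 2 sets differ in level, since 181 of the 303 lay below the limit in all 6 arrays. Of the 115 above background, 5 were higher and 7 lower, against 15.3% and 14.0% of all genes above background. The Mir23a cluster printed above rose in all 3 of its members. Mir27a read 7.09, 7.03 and 7.10 in Nkx2-1-shRNA lines, against 6.45, 6.42 and 6.31 in control lines (log2 fold change 0.68 ± 0.0778, adjusted p = 0.00187). Mir23a rose by 0.52 (adjusted p = 0.00516) and Mir24-2 by 0.62 (adjusted p = 0.0112), and in none of the 3 did the groups overlap. These 3 were named after their values had been seen, and as neighbours in 1 primary transcript they are not independent.

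Mir3068 (-0.84, adjusted p = 0.00196) and Mir674 (-0.83, adjusted p = 0.0108) fell, and both lay above the limit in all 6 arrays. Mir29a and Mir135b passed the test (adjusted p = 0.0384 and 0.00508) but lay above the limit only in Nkx2-1-shRNA lines, so the size of their rise is not given. Mir135b read 5.26, 5.10 and 4.81 in Nkx2-1-shRNA lines, against 4.09, 3.63 and 4.06 in control lines, and Mir29a read 4.92, 4.86 and 5.24 in Nkx2-1-shRNA lines, against 4.03, 4.25 and 3.01 in control lines. Without Nkx2-1-shRNA line 1, 2 or 3 or control line 1 the adjusted p of Mir29a was 0.0617 to 0.111. Mir200c was below the limit in all 6 arrays, at 3.79, 3.51 and 3.72 in Nkx2-1-shRNA lines and 3.75, 3.62 and 3.98 in control lines (log2 fold change -0.11, adjusted p = 0.621). The paper reports that mature miR-200c rose in the knockdown lines, on microRNA arrays and by quantitative PCR. Mature microRNA was not tested here, and values under the limit cannot show whether the primary transcript of Mir200c changed. Of 9 let-7 genes read, 5 lay above background, and none of the 9 passed the test by limma or by the methods' t-test, though 2 were higher and 1 lower at an unadjusted p under 0.05.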

How the data were processed

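Total RNA of 3 Nkx2-1-shRNA and 3 control MLE15 lines was measured, 1 array each. Gene-level values were made by the authors with RMA (Robust Multi-Array Analysis) in Affymetrix Expression Console 1.1. The log2 values they deposited lie between 0.46 and 13.69. They were used as they stand, so small values are compressed and array-wide shifts were adjusted before deposit. Array medians still lay at 5.10 to 5.14 in Nkx2-1-shRNA lines and at 5.18 to 5.21 in control lines. The genome build of the array annotation is not given in the sources used here. Of 35557 transcript clusters 21789 had 1 gene symbol, 1621 several and 12147 none or no entry. Gene order and sequences came from RefSeq (GRCm38.p6).

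The comparison used limma 3.58.1 under R 4.3.3 (lmFit and eBayes with 4 residual and 2.86 prior degrees of freedom) over all transcript clusters, with Benjamini-Hochberg adjustment and a threshold of 0.05. Exact permutation tests were run with Python 3 scripts. The step was tested on simulated data. Arrays give no counts, so their number limits the precision. The 10 genes, the lists and the rule for named genes (of each list up to 4 with the largest change past the threshold and above background, and Tut4, Lin28a, Tnrc6a, Ddx5, Prkra and Hmga2) were chosen with earlier results of these data known. Alternatives were array weights, a robust trended prior, the methods' t-test, a test for unequal variances, quantile normalization, median centring, 3 filters, averaging of a gene's transcript clusters, replicate number as a block, the study's threshold and each line left out.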

Additional observations from a re-analysis of the deposited data

How the results depend on the processing

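Among the 10 genes 1 was higher and 2 were lower. The methods' t-test left 1 lower and the test for unequal variances 0 higher and 1 lower. The study's threshold, set on the limma adjusted p, left 0 higher and 0 lower. Leaving out 1 line at a time gave 0 to 2 lower genes and 1 higher gene each time. Nkx2-1 (log2 fold change -0.69) missed an adjusted p of 0.05 with the test for unequal variances (0.0550). Its limma adjusted p (0.00155) did not reach the study's threshold. Its log2 fold change with a line left out was -0.73 to -0.66, and -0.61 after median centring. Ago4 lost its call with the test for unequal variances (adjusted p = 0.122), and Drosha with that test (0.110) and the methods' t-test (0.0819). Of the named list genes, Igf2bp3 (adjusted p = 0.0639), Tnrc6a (0.0613), Dcp1a (0.0514), Fkbp5 (0.0552) and Parn (0.0623) lost their calls with the methods' t-test. So did Mir674 (0.0628), Mir24-2 (0.0510) and Mir29a (0.154). The test for unequal variances dropped these and, among others, Prkra (0.116), Mycn (0.0546), Tgfbr1 (0.123) and Mir135b (0.0708). Ago3 passed among transcript clusters above the median level (0.0442) and among those with 1 gene symbol (0.0417), where fewer features were tested. Values near 0 changed sign when 1 line was left out, with a range of -0.017 (without control line 2) to 0.0873 for Dgcr8, -0.0083 (without Nkx2-1-shRNA line 3; -0.0058 without control line 3) to 0.0698 for Xpo5, -0.034 (without Nkx2-1-shRNA line 2) to 0.12 for Lin28b, -0.0943 to 0.11 for Lin28a and -0.0830 to 0.0217 for Ddx5. Median centring turned Lin28a to 0.0725 and Ddx5 to 0.0481, and quantile normalization turned Lin28a to 0.0630. The cause was not tested. Of the list genes, 5 higher and 14 lower, the test for unequal variances kept 0 and 9, and leaving out 1 line gave 2 to 3 and 9 to 13. Median centring gave 6 higher and 11 lower. Under it Tnrc6a (limma adjusted p = 0.0547), Edc4 (0.0542) and Hspa8 (0.144) lost their calls.

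Replicate numbers are shared between groups but were not found to pair the lines (correlations of deviations 0.0575, 0.136 and -0.0342; 3 of 6 arrays matched their own number best). With the replicate block, 2269 transcript clusters were higher and 2775 lower, against 2705 and 3284 without it. Under the block Drosha (adjusted p = 0.0387), Ago1 (0.0372) and Ago4 (0.0139) kept their calls, while Parn (0.0515), Hspa8 (0.0992), Lsm14a (0.0804) and Mir29a (0.0812) did not. Of the list genes 3 were higher and 14 lower under the block. It changed no other call among the 10 genes, Nkx2-1 and the named list genes. Lin28b had no value under the filters on dim transcript clusters. Only 3 lines a group were measured, and an array cannot tell a low level from none.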
